A study of Homo sapiens with 4 samples.

Results

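The genes described here encode the proteins of the mitochondrial ribosome. They were taken as the protein-coding genes whose symbol is MRPL or MRPS followed by a number and at most 1 letter. There were 78 such genes, 49 with an MRPL and 29 with an MRPS symbol, of 58735 rows in the table of the shRNA libraries, and all 78 were also in the 18964 rows of the table of the wild-type libraries. They lie on 21 chromosomes. RNA-seq was done on the established human glioblastoma line U87. There were 4 groups of 1 library each. These were wild-type (WT) cells in hypoxia, WT cells in normoxia, cells with an shRNA against ALKBH5 in hypoxia (shALKBH5), and cells with a scrambled shRNA in hypoxia (shScr). Hypoxia was 1% O2, and the labels name no duration. All cells grew with serum. The number of shRNAs, and whether an shRNA line is a clone, are not stated in the labels. ALKBH5 is a demethylase of N6-methyladenosine in RNA.

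The mitochondrial ribosome translates the few mRNAs of the mitochondrial genome, which encode core subunits of the respiratory chain and of the ATP synthase. Its rRNAs are made in the mitochondrion, while all of its proteins are encoded in the nucleus, made on cytosolic ribosomes and imported. The large subunit forms the peptide bond and the exit tunnel, and the small subunit binds and decodes the mRNA. Many of its proteins descend from bacterial ribosomal proteins, and others are found only in mitochondria. Some symbols do not match the subunit: the proteins of MRPS30 and MRPS18A sit in the large subunit. By the classes used here, 51 of the 78 genes encode large and 26 encode small subunit proteins. MRPS36, which RefSeq names KGD4 and which encodes a subunit of the 2-oxoglutarate dehydrogenase complex, was placed in neither.

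The values are FPKM, fragments per kilobase adjusted for library size, so that levels of different genes can be set side by side within a table. The shALKBH5 library held 16780154 and the shScr library 17859370 reads assigned to genes, and the WT table allows no read total. No difference has a replicate check, and no p-value is given. A change is the difference in log2(FPKM + 1), which understates the change of low genes. Genes with a mean of at least 1 FPKM over the libraries compared were counted, and a gene is called higher or lower where it differed at least 2-fold on this scale. The hypoxia-induced carbonic anhydrase gene CA9 stood at 322 FPKM in WT hypoxia and 1.27 FPKM in WT normoxia. ALKBH5 stood at 113 FPKM with shALKBH5 and 186 FPKM with shScr, a log2 change of -0.71 that is under 2-fold. Of the glioma genes checked, VIM and CD44 were between 67.2 and 4494 FPKM in all 4 libraries, while GFAP, S100B and SOX2 were at most 0.23 FPKM and OLIG2 at most 1.35 FPKM. Of markers of other cells, PTPRC of leukocytes, EPCAM of epithelium and CDH5 of endothelium were at most 0.28 FPKM, and the endothelial gene PECAM1 at most 2.5 FPKM.

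The mitochondrial ribosomal protein genes were moderately abundant and spanned a wide range. Their median was 30.7 FPKM in WT hypoxia and 46.0 FPKM in WT normoxia, where all genes past the filter had a median of 9.23 FPKM in WT hypoxia and 12.3 FPKM in WT normoxia. In the shRNA table the members' median was 12.1 FPKM with shALKBH5 and 13.3 FPKM with shScr, where all genes past the filter had 5.71 FPKM with shALKBH5 and 5.85 FPKM with shScr. The most abundant in the WT table by mean FPKM were MRPS6, MRPS24, MRPL51, MRPS15 and MRPL37, and the least abundant were MRPS36, MRPS14, MRPS25, MRPL22 and MRPL19. MRPL51 stood at 149 FPKM in WT hypoxia and 206 FPKM in WT normoxia. MRPS15 stood at 136 FPKM in WT hypoxia and 178 FPKM in WT normoxia. At the low end, MRPS36 stood at 4.38 FPKM in WT hypoxia and 7.30 FPKM in WT normoxia. MRPS14 stood at 5.85 FPKM in WT hypoxia and 6.87 FPKM in WT normoxia. MRPL22 stood at 6.05 FPKM in WT hypoxia and 8.97 FPKM in WT normoxia, and MRPL19 at 5.72 FPKM in WT hypoxia and 10.4 FPKM in WT normoxia. The low-level members thus lay near or below the median of all genes. In the shRNA table the most abundant were MRPS6, MRPS34, MRPL14, MRPL17 and MRPL51, and the least abundant were MRPL38, MRPL46, MRPL42, MRPS17 and MRPL1. MRPL14 stood at 87.2 FPKM with shALKBH5 and 143 FPKM with shScr. MRPL17 stood at 88.2 FPKM with shALKBH5 and 100.2 FPKM with shScr, and MRPL51 at 80.5 FPKM with shALKBH5 and 87.9 FPKM with shScr. The order of the 78 levels was close within a table (Spearman's rho 0.868 between the WT libraries and 0.963 between the shRNA libraries) and looser between the hypoxic controls of the tables (0.675 between shScr and WT hypoxia). These are descriptions across genes, which are not replicates.

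**Figure D1:**
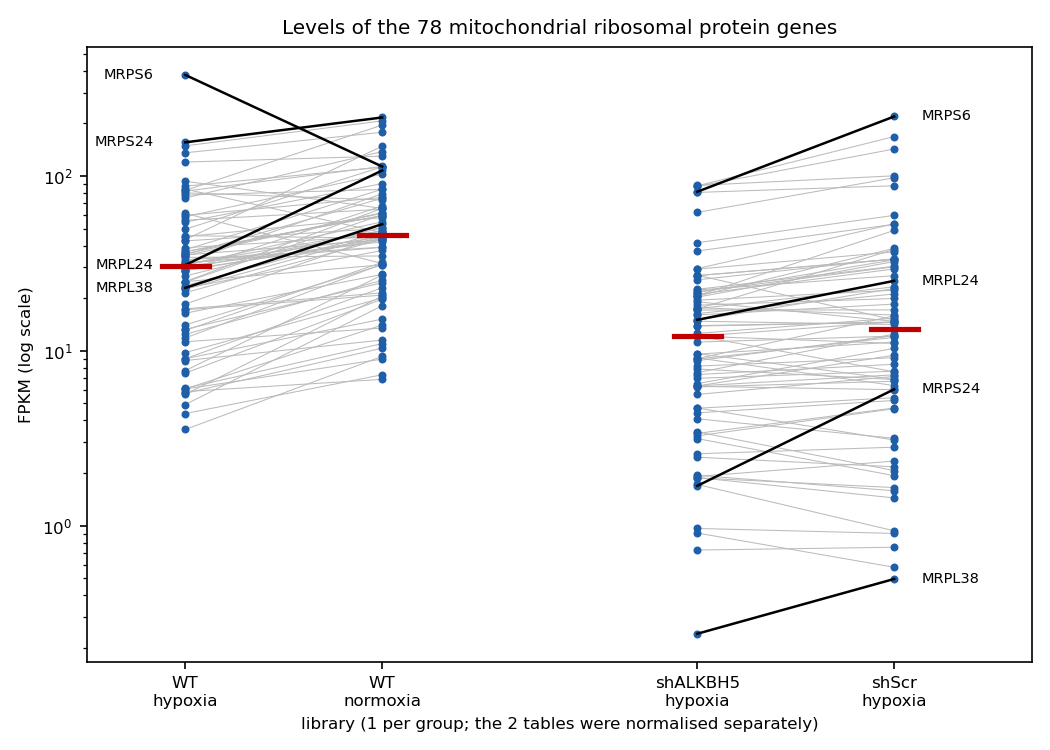
FPKM (log scale) of the 78 mitochondrial ribosomal protein genes in the 4 libraries. Each point is a gene, grey lines join a gene's 2 libraries within a table, the red bar is the median, and 4 genes are drawn in black. The medians are 30.7 in WT hypoxia, 46.0 in WT normoxia, 12.1 with shALKBH5 and 13.3 with shScr, and MRPS6 crosses the others in the WT table.

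In WT cells, most mitochondrial ribosomal protein genes stood lower in hypoxia than in normoxia. All 78 passed the filter, and 72 had a change below 0, as did 7640 of all 11050 genes tested. At least 2-fold lower were 23 of 78 (29.5%), against 14.7% of all 11050 genes tested, and 1 of 78 was at least 2-fold higher, against 7.41% of all genes. The members' median log2 change was -0.70, against -0.35 for all genes, a difference of -0.34. In bulk RNA, a lower level in every cell and a lower share of cells with the RNA cannot be told apart. Because the median gene itself was lower in hypoxia, the count depends on that value. With each change taken relative to the median gene, 6 members were at least 2-fold lower (7.69%), against 5.73% of all genes, and 3 were at least 2-fold higher (3.85%), against 11.9% of all genes. After centring, the members' share of lower genes was thus near that of all genes, while 57 of 78 members lay below the median gene. Rescaled to TPM, 28 of 78 members were lower, against 2403 of all 11864 genes tested, and 1 was higher, against 858. The 6 members lower after centring were MRPL24, MRPL3, MRPS30, MRPL50, MRPL1 and MRPL15, all of the large subunit. The 3 higher ones were MRPS6, MRPL17 and MRPL28.

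The lowest change was that of MRPL24 (ENSG00000143314, GRCh38 chromosome 1, 156737303 to 156741590, minus strand), whose product lies by the tunnel exit. It stood at 31.0 FPKM in WT hypoxia and 108 FPKM in WT normoxia, a log2 change of -1.76. MRPL3 (ENSG00000114686, chromosome 3, 131462212 to 131502983, minus strand) encodes a core protein of the large subunit. It stood at 43.3 FPKM in WT hypoxia and 148 FPKM in WT normoxia (-1.75). On the scale with 1 added, both genes had the lowest hypoxic shares of their normoxic levels, 0.294 for MRPL24 and 0.297 for MRPL3. MRPS30, a mitochondria-specific protein of the large subunit, stood at 5.64 FPKM in WT hypoxia and 20.6 FPKM in WT normoxia (-1.70). MRPL50, also mitochondria-specific, stood at 7.71 FPKM in WT hypoxia and 27.1 FPKM in WT normoxia (-1.69). MRPL1, homologue of the bacterial protein of the mobile stalk by the tRNA exit site, stood at 4.93 FPKM in WT hypoxia and 18.1 FPKM in WT normoxia (-1.69). A gap followed, since the next member, MRPL15, was at -1.36. These 5 were the members at least 3-fold lower. Their order depends on the added value. With 0.1 added instead of 1, the lowest were MRPL1 (-1.86), MRPS30 (-1.85) and MRPL50 (-1.80). MRPL24 (-1.79) and MRPL3 (-1.77) then followed.

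Of the 51 large subunit genes, 15 were at least 2-fold lower in hypoxia and 0 at least 2-fold higher, with a median change of -0.70. Of all genes, 14.7% were lower and 7.41% higher. Centred on the median gene, 6 of the 51 were lower, against 5.73% of all genes, and 2 were higher, against 11.9%. Beside the 5 lowest, the 15 lower genes included 6 with a bacterial homologue. MRPL15 stood at 24.9 FPKM in WT hypoxia and 65.3 FPKM in WT normoxia (-1.36). MRPL4, which lines the exit tunnel in bacteria, stood at 32.1 FPKM in WT hypoxia and 79.1 FPKM in WT normoxia (-1.27). The remaining 4 lay between -1.26 and -1.01. MRPL30 was at 9.02 FPKM in WT hypoxia and 22.9 FPKM in WT normoxia (-1.26). MRPL32, whose precursor is cleaved by the m-AAA protease before it joins the ribosome, was at 24.7 FPKM in WT hypoxia and 60.0 FPKM in WT normoxia (-1.24). MRPL12, the stalk protein that helps to recruit translation factors, was at 49.6 FPKM in WT hypoxia and 113 FPKM in WT normoxia (-1.17). The other stalk genes, MRPL10 and MRPL11, were at -0.69 and -0.33, under 2-fold. MRPL47 was nearest to the threshold, at 22.5 FPKM in WT hypoxia and 46.3 FPKM in WT normoxia (-1.01).

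The remaining lower genes of the large subunit were mitochondria-specific. MRPL57 stood at 11.8 FPKM in WT hypoxia and 31.3 FPKM in WT normoxia (-1.33). MRPL37 was an abundant member, at 82.7 FPKM in WT hypoxia and 195 FPKM in WT normoxia (-1.23). MRPL38 and MRPL46 belong to the central protuberance, the part of the large subunit that faces the head of the small subunit. MRPL38 stood at 22.9 FPKM in WT hypoxia and 53.0 FPKM in WT normoxia (-1.17). MRPL46 stood at 14.1 FPKM in WT hypoxia and 31.0 FPKM in WT normoxia (-1.09). Of 8 genes of the central protuberance, these 2 were lower, against 14.7% of all genes, and 0 when centred, against 5.73%. MRPL58, a former release factor that became part of this structure, was just under 2-fold at 21.5 FPKM in WT hypoxia and 43.5 FPKM in WT normoxia (-0.98). Of 9 genes of the tunnel exit, 3 were lower, against 14.7% of all genes, and 1 when centred, against 5.73%. MRPL45, a protein of this site placed towards the inner membrane, was at 30.4 FPKM in WT hypoxia and 42.1 FPKM in WT normoxia (-0.46).

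Of the 26 small subunit genes, 8 were at least 2-fold lower and 1 was at least 2-fold higher, with a median of -0.68. Of all genes, 14.7% were lower and 7.41% higher. Centred on the median gene, 0 of the 26 were lower, against 5.73% of all genes, and 1 was higher, against 11.9%. The mitochondria-specific genes of the small subunit had the lowest median of the classes, -1.09, with 5 of 9 lower and all 9 below the median gene. MRPS31 stood at 7.46 FPKM in WT hypoxia and 19.7 FPKM in WT normoxia (-1.29). MRPS35 stood at 18.5 FPKM in WT hypoxia and 45.6 FPKM in WT normoxia (-1.26). MRPS27, which has the pentatricopeptide repeats of RNA-binding proteins, stood at 13.1 FPKM in WT hypoxia and 32.1 FPKM in WT normoxia (-1.23). These genes were low to moderate in level, and MRPS25 was the lowest of all members in hypoxia. It stood at 3.55 FPKM in WT hypoxia and 9.30 FPKM in WT normoxia (-1.18). MRPS26 stood at 6.06 FPKM in WT hypoxia and 14.04 FPKM in WT normoxia (-1.09). The other members of the class ranged up to -0.36, the value of MRPS33. No gene of this class was at least 2-fold lower after centring.

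Among the small subunit genes with a bacterial homologue, 3 of 17 were lower, against 14.7% of all genes, and 0 when centred, against 5.73%. MRPS2 stood at 28.8 FPKM in WT hypoxia and 67.3 FPKM in WT normoxia (-1.20). MRPS12, homologue of the bacterial decoding protein in which streptomycin resistance arises, stood at 37.8 FPKM in WT hypoxia and 83.9 FPKM in WT normoxia (-1.13). MRPS18B is one of the MRPS18 genes, of which the human genome has several. It stood at 35.5 FPKM in WT hypoxia and 74.6 FPKM in WT normoxia (-1.05). MRPS18C had a change of -0.99 and MRPS18A of -0.21, both under 2-fold, so the related genes lay at different points of the range. MRPS18C stood at 23.6 FPKM in WT hypoxia and 47.7 FPKM in WT normoxia. MRPS18A stood at 55.8 FPKM in WT hypoxia and 64.5 FPKM in WT normoxia.

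**Figure D2:**
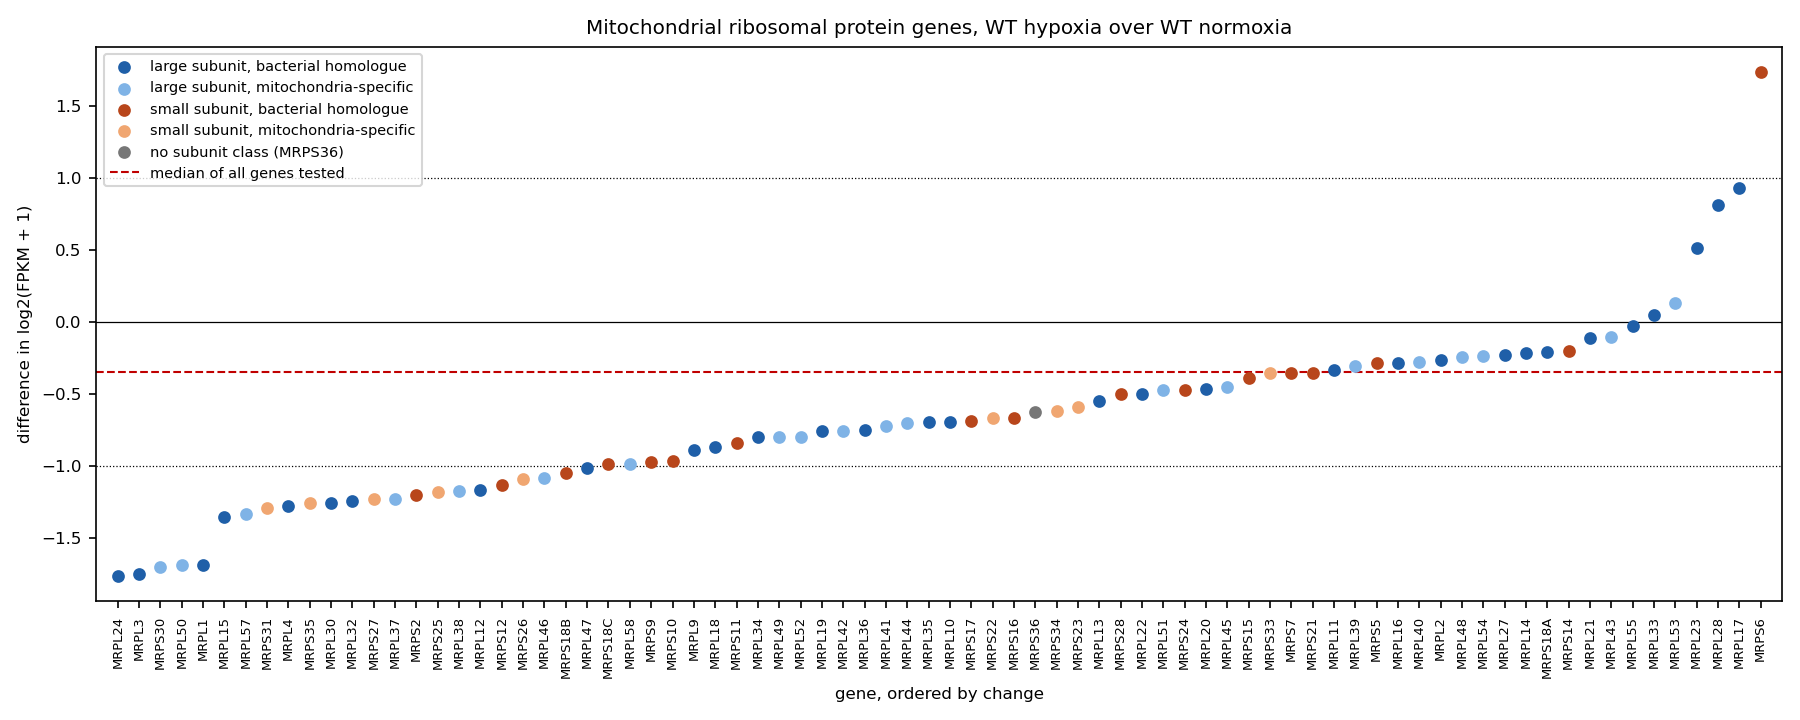
Difference in log2(FPKM + 1), WT hypoxia minus WT normoxia, for each of the 78 genes, ordered from low to high and coloured by subunit and origin. Dotted lines mark 2-fold and the dashed line the median of all genes tested (-0.35). MRPL24, MRPL3, MRPS30, MRPL50 and MRPL1 lie apart at the low end and MRPS6 (1.73) apart at the high end.

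A few members stood higher in hypoxia. MRPS6 (ENSG00000243927, chromosome 21, 34073224 to 34143034, plus strand), homologue of a bacterial protein of the small subunit platform, stood at 378 FPKM in WT hypoxia and 113 FPKM in WT normoxia, a log2 change of 1.73. This made it the most abundant member in hypoxia, with 11.6% of the members' summed FPKM in WT hypoxia and 2.48% in WT normoxia. The other genes at the high end were under 2-fold. MRPL17 stood at 61.1 FPKM in WT hypoxia and 31.6 FPKM in WT normoxia (0.93). MRPL28 stood at 84.1 FPKM in WT hypoxia and 47.5 FPKM in WT normoxia (0.81). MRPL23, of the tunnel exit, stood at 93.3 FPKM in WT hypoxia and 65.2 FPKM in WT normoxia (0.51). These were followed by MRPL53, with 80.1 FPKM in WT hypoxia and 72.9 FPKM in WT normoxia (0.13). Summed over all members and rescaled to TPM, the genes held 6233 TPM in WT hypoxia and 9337 TPM in WT normoxia. Without MRPS6 the sums were 5513 TPM in WT hypoxia and 9105 TPM in WT normoxia.

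MRPS6 shares exon bases with SLC5A3 on the same strand, 273 of them on the annotation, and SLC5A3 encodes an inositol transporter. SLC5A3 stood at 20.8 FPKM in WT hypoxia and 4.74 FPKM in WT normoxia, a log2 change of 1.93. Both genes of the locus were thus higher in hypoxia, and both were lower with shALKBH5, where SLC5A3 stood at 45.5 FPKM, against 93.7 FPKM with shScr (-1.03). Whether the counting gave reads of one gene to the other was not tested, and the values of MRPS6 are uncertain for this reason.

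The lower members were spread over all levels. Split by mean FPKM into 3 equal groups of 26, the low group had 10 lower members and a median of -0.80. The middle group had 6 and a median of -0.64, and the high group had 7 and a median of -0.47. Other genes of the same ranges of FPKM were at least 2-fold lower in 18.1%, 11.9% and 10.3% of cases. Across the 78 members the change had a Spearman's rho of 0.218 with mean FPKM and -0.05 with gene length. Of the 29 members that overlap no other gene on the annotation, 6 were at least 2-fold lower (20.7%) and 0 at least 2-fold higher. The shares of all genes were 14.7% lower and 7.41% higher.

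The promoters of the genes at both ends of the hypoxia order are printed here to show which short motifs they hold. RefSeq promoters (GRCh38.p14), from 250 bases before to 50 bases after the start, matched 69 of the 78 members. They are MRPL24 (chr1:156741039-156741338, minus strand), MRPL3 (chr3:131502922-131503221, minus strand), MRPS30 (chr5:44808697-44808996, plus strand), MRPS12 (chr19:38930694-38930993, plus strand), MRPL17 (chr11:6683291-6683590, minus strand) and MRPS6 (chr21:34073328-34073627, plus strand). MRPS12 is shown because it was at least 2-fold lower in both comparisons with FPKM as deposited. Capitals mark the ETS core CCGGAAG, the YY1 core AAGATGG and, in MRPL17, the NRF1 core GCATGCG, each on either strand. ETS factors such as GABP, the zinc finger protein YY1 and the factor NRF1 are known regulators of nuclear genes for mitochondrial proteins.
MRPL24: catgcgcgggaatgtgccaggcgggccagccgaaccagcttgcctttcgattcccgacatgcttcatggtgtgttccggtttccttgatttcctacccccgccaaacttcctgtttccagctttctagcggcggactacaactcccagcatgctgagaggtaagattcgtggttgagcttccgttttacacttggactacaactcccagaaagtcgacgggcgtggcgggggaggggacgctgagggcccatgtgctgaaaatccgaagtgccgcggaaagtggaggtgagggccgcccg
MRPL3: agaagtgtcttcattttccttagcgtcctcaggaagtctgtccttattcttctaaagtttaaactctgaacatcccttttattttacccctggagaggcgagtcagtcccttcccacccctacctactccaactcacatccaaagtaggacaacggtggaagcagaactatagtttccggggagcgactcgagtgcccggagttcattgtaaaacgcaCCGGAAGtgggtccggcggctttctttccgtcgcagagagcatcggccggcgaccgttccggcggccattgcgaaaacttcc
MRPS30: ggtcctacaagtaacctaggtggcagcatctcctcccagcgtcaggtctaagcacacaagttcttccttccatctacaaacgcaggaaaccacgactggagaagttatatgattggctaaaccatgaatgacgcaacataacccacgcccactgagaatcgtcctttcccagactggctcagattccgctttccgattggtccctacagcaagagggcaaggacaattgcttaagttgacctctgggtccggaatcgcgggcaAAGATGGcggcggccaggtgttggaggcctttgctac
MRPS12: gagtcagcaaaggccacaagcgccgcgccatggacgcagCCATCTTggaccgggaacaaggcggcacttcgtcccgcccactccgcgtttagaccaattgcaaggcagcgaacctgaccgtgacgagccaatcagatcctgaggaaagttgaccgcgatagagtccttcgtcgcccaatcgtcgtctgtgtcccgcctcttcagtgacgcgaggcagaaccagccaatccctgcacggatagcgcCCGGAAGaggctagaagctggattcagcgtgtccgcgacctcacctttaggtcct
MRPL17: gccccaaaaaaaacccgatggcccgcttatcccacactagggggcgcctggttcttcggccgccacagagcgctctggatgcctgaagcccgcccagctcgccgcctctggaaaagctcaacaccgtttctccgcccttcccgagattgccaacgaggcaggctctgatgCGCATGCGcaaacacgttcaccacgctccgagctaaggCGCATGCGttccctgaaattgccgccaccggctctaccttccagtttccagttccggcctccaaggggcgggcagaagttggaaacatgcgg
MRPS6: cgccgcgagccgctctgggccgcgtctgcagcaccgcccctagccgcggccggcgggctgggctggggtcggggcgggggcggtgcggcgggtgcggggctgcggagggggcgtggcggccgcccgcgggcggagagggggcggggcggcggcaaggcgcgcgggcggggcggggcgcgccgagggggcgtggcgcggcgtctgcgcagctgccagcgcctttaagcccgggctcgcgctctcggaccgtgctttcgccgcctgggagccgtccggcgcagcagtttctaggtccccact
In MRPL3 the ETS core begins 32 bases before the start, at -32, and in MRPS12 at -5. The YY1 core of MRPS30 begins at 14, inside the transcript, and that of MRPS12 lies at -211. MRPL17 holds 2 palindromic stretches that match the NRF1 core on both strands, 4 matches in all. MRPL24 and MRPS6, the members with the lowest and the highest change in hypoxia on the scale with 1 added, hold none of these letters in this window.

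Over all matched members, 30 of 69 promoters (43.5%) held the ETS core, against 12.2% of all 27305 genes in the promoter table and 23.8% of 7625 other protein-coding genes past the filter. The YY1 core was in 24 (34.8%), against 7.11% of all genes and 10.1% of the others past the filter. One or the other was in 45 members (65.2%), against 31.1% of the others past the filter, and 9 members held both. The NRF1 core was in 7 members (10.1%), against 4.74% of all genes and 8.07% of the others past the filter. The E-box CACGTG was in 9 (13.0%), against 8.77% of all genes, and the hypoxia response core ACGTG, which each E-box also contains, in 24 (34.8%), against 24.9% of all genes. Among the others past the filter, 13.2% held the E-box and 34.1% the hypoxia response core, shares close to those of the members. The median log2 change in hypoxia was -0.61 in members with the ETS core and -0.80 in members without it. With and without the YY1 core it was -0.80 and -0.69. With and without the hypoxia response core it was -0.62 and -0.76. No test was run on these shares, and a match is only a match of letters.

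The lists of assembly, translation factor and tRNA charging genes also had medians in hypoxia below the -0.35 of all genes. Of 27 assembly genes, 11 were at least 2-fold lower and 0 at least 2-fold higher, with a median of -0.90. Of all genes, as above, 14.7% were lower and 7.41% higher. Centred on the median gene, 3 of the 27 were lower, against 5.73% of all genes, and 2 were higher, against 11.9%. MPV17L2, which helps to assemble the ribosome at the inner membrane, stood at 7.84 FPKM in WT hypoxia and 30.4 FPKM in WT normoxia (-1.83). MRM1, which methylates the large rRNA, stood at 0.72 FPKM in WT hypoxia and 4.82 FPKM in WT normoxia (-1.76). MTERF3 and the GTPase gene NOA1 were at -1.59 and -1.31. Of 14 translation factors, 4 were lower and 0 higher, with a median of -0.75, and 3 were lower when centred. They were the factor genes GUF1 (-1.60), the elongation factor gene GFM1 (-1.40), the initiation factor gene MTIF2 (-1.36) and the ribosome recycling factor gene MRRF (-1.18). Of 20 genes for charging mitochondrial tRNAs, 9 were lower and 0 higher, with a median of -0.92, and 3 were lower when centred. Among them were MARS2 (-1.71), NARS2 (-1.48) and QRSL1 (-1.33).

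Genes for mitochondrial DNA and its transcription had 3 of 9 lower and 0 higher, also when centred. These were the helicase gene TWNK (-2.09), the transcription factor gene TFB2M (-1.79) and TFAM (-1.58), which packages mitochondrial DNA. Of 7 measured regulators of nuclear genes for mitochondria, 4 were lower, against 14.7% of all genes, and 1, PPRC1, was lower when centred, against 5.73%. The coactivator gene PPRC1 stood at 3.75 FPKM in WT hypoxia and 27.9 FPKM in WT normoxia (-2.60). ESRRA was at -1.33, MYC at -1.30 and GABPB1, a partner of the ETS factor GABPA, at -1.07. NRF1 was at -0.41 and YY1 at -0.26, both under 2-fold. The regulators PPARGC1A and PPARGC1B were under the filter, at no more than 0.93 FPKM in either WT library. Of 5 mitochondrial ribosomal protein genes with other symbols, 0 were past 2-fold, with a median of -0.39, PTCD3 being the lowest (-0.84) and GADD45GIP1 the highest (0.10).

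The cytosolic ribosome and the respiratory chain stood elsewhere. Of 84 measured cytosolic ribosomal protein genes, 0 were at least 2-fold higher and 3 at least 2-fold lower, with a median of 0.18. The shares of all genes were 7.41% higher and 14.7% lower. Of 75 nuclear genes for respiratory chain subunits, 1 was higher and 1 was lower, with a median of -0.14. The higher one was NDUFB8, at 259 FPKM in WT hypoxia and 122 FPKM in WT normoxia, and the lower one was ATP5MC1, at 62.5 FPKM in WT hypoxia and 139 FPKM in WT normoxia. The difference between these lists and the mitochondrial ribosomal protein genes was not tested, since each group has 1 library. Centring moves all lists by the same amount. After it, 2 of the 84 cytosolic genes were at least 2-fold higher and 1 lower. Among the 75 respiratory chain genes, 5 were then higher and 0 lower. The centred shares of all genes were 11.9% higher and 5.73% lower.

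**Figure D3:**
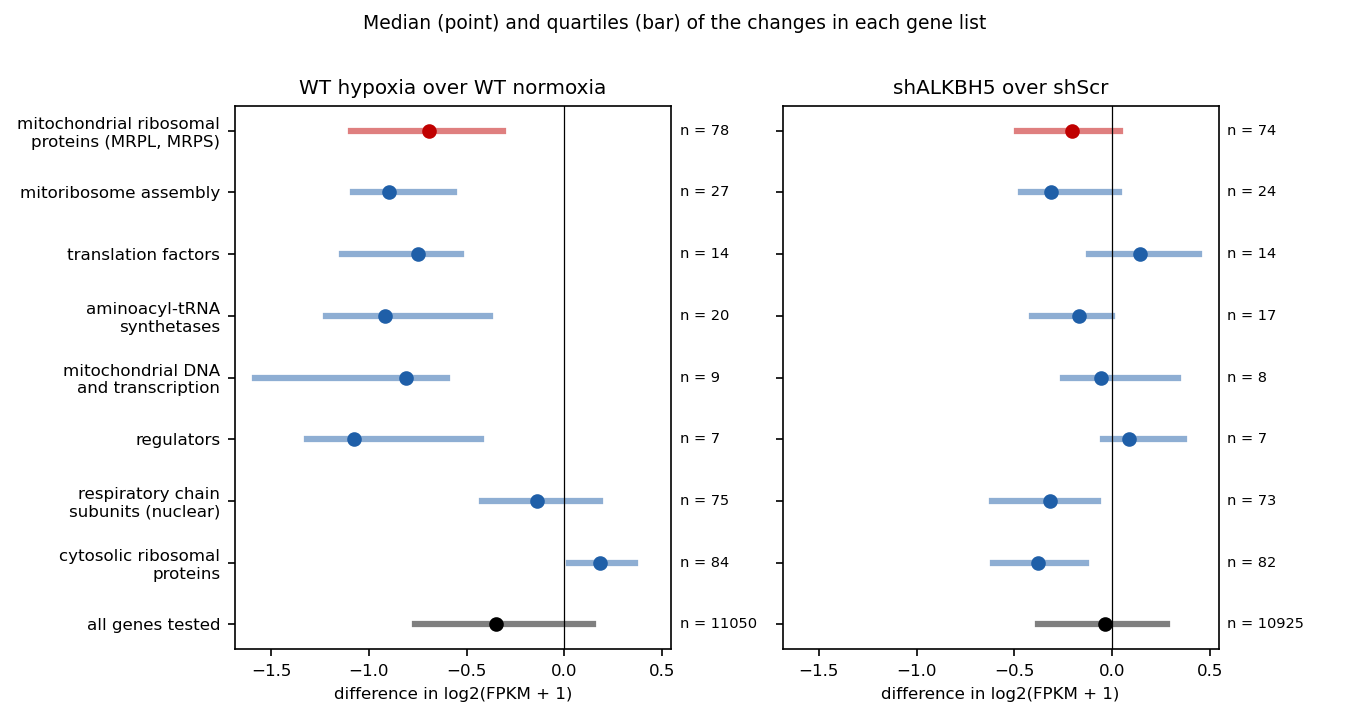
Median (point) and quartiles (bar) of the difference in log2(FPKM + 1) in each gene list, in WT hypoxia minus WT normoxia (left) and shALKBH5 minus shScr (right), with the number of genes past the filter. In hypoxia the mitochondrial ribosomal protein genes have a median of -0.70 and the cytosolic ones of 0.18, and with shALKBH5 these medians are -0.20 and -0.38.

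With shALKBH5, both libraries being hypoxic, the mitochondrial ribosomal protein genes had a median close to that of all genes. Of 78 members 74 passed the filter. At least 2-fold lower were 4 of 74 (5.41%), against 3.0% of all 10925 genes tested, and 0 of 74 were at least 2-fold higher, against 1.76% of all genes. The median log2 change was -0.20, against -0.04 for all genes. Below 0 were 55 of 74 members and 5797 of all 10925 genes tested. Rescaling to TPM shifts every log2 ratio by 0.26 before 1 is added. The added 1 and the filter then apply to TPM, which let 14344 genes pass, all 78 members among them. Of the members, 2 were lower (2.56%), against 2.88% of all genes, and 1 was higher (1.28%), against 8.41% of all genes. The members' median was then 0.03, with 40 of 78 above 0, so the sign of the group's shift depends on the scaling. Relative to the median gene it stayed below 0 under both, at -0.17 as deposited and -0.20 as TPM. The share of lower members was near that of all genes, so the count is no result about these genes.

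The 4 lower members were MRPS6, MRPS24, MRPS12 and MRPL49. MRPS6 stood at 81.2 FPKM with shALKBH5 and 219 FPKM with shScr, from 5534 and 13977 reads. Its log2 change was -1.42, and the 95% exact counting interval of its log2 read ratio ran from -1.47 to -1.38. MRPS6 thus had the highest change of the members in WT hypoxia over normoxia and, on this scale, the lowest in shALKBH5 over shScr. MRPS24 (ENSG00000062582, chromosome 7, 43866558 to 43869893, minus strand), homologue of a bacterial protein at the mRNA entry, stood at 1.69 FPKM with shALKBH5 and 6.03 FPKM with shScr, from 70 and 234 reads (-1.38). Its log2 read ratio of -1.83 (interval -2.24 to -1.44) was below that of MRPS6. In the WT table it was one of the most abundant members, at 156 FPKM in WT hypoxia and 216 FPKM in WT normoxia (-0.47). By mean level it was thus the second member in the WT table and number 64 of 78 in the shRNA table.

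MRPS12 (ENSG00000128626, chromosome 19, 38930548 to 38933162, plus strand) stood at 20.7 FPKM with shALKBH5 and 48.8 FPKM with shScr, from 702 and 1556 reads (-1.20). Its log2 read ratio was -1.24 (interval -1.37 to -1.11). MRPS12 was the only 1 of the 74 members past the filter in both tables that was at least 2-fold lower in both comparisons. Centred on the median gene, its change in hypoxia was -0.78, under 2-fold. The number of such genes among all genes is not given. MRPL49 (ENSG00000149792, chromosome 11, 65122183 to 65127371, plus strand), a mitochondria-specific protein of the large subunit, stood at 17.4 FPKM with shALKBH5 and 37.97 FPKM with shScr, from 848 and 1738 reads (-1.08). Its log2 read ratio was -1.13 (interval -1.25 to -1.01). Under TPM, MRPS12 at -0.97 and MRPL49 at -0.86 were no longer past 2-fold, while MRPS6 at -1.17 and MRPS24 at -1.43 were. All 4 share exon bases with another gene, as do 41 of all 78 members. In MRPS12 these are 349 bases with SARS2 on the opposite strand. In MRPL49 they are 356 bases with SYVN1 and 282 with FAU, both on the opposite strand. Of the 29 members without any overlap, 0 were past 2-fold in either direction. Of all 10925 genes tested, 192 were higher and 328 lower. No source used here says whether the counting used strand, and the part of overlapping genes in these values was not tested.

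Next below these came MRPS34, a mitochondria-specific protein of the small subunit, with 87.8 FPKM with shALKBH5 and 168 FPKM with shScr (-0.93). It was under 2-fold, with an interval of the read ratio from -1.03 to -0.85. At the other end stood MRPL15, with 27.1 FPKM with shALKBH5 and 15.03 FPKM with shScr, from 511 and 266 reads. Its change of 0.81 was under 2-fold as deposited and was past it under TPM, at 1.09. MRPS10 stood at 12.2 FPKM with shALKBH5 and 7.59 FPKM with shScr (0.62). MRPL30 was at 3.44 FPKM with shALKBH5 and 2.07 FPKM with shScr (0.53). MRPS31 was at 3.15 FPKM with shALKBH5 and 1.93 FPKM with shScr (0.50). MRPL1 was at 1.72 FPKM with shALKBH5 and 0.935 FPKM with shScr, from 53 and 27 reads (0.49). Its log2 read ratio, with no 1 added, was 0.88 (interval 0.19 to 1.61). All 5 genes of this upper end stood lower in hypoxia than in normoxia in WT cells, as did 72 of 78 members. At least 2-fold lower were 4 of the 5, against 23 of 78 members and 14.7% of all genes. Centred on the median gene, only MRPL15 (-1.01) and MRPL1 (-1.34) of the 5 stayed past 2-fold.

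The depth set the precision of these values. The 95% interval of the read ratio lay below 0 in 40 of 74 members, above 0 in 10 and across 0 in 24. These counts hold for FPKM as deposited and depend on the scaling. Totals of recovered reads raise every log2 read ratio by 0.18, and TPM by 0.26. No such counts over all genes are given. The interval covers counting error between these 2 libraries, not the spread between cultures. The members had between 14 and 13977 reads in a library. Under the filter were MRPL38 with 0.241 FPKM with shALKBH5 and 0.496 FPKM with shScr, and MRPL46 with 0.726 FPKM with shALKBH5 and 0.753 FPKM with shScr. MRPL42 had 0.908 FPKM with shALKBH5 and 0.579 FPKM with shScr, and MRPS17 had 0.964 FPKM with shALKBH5 and 0.904 FPKM with shScr.

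**Figure D4:**
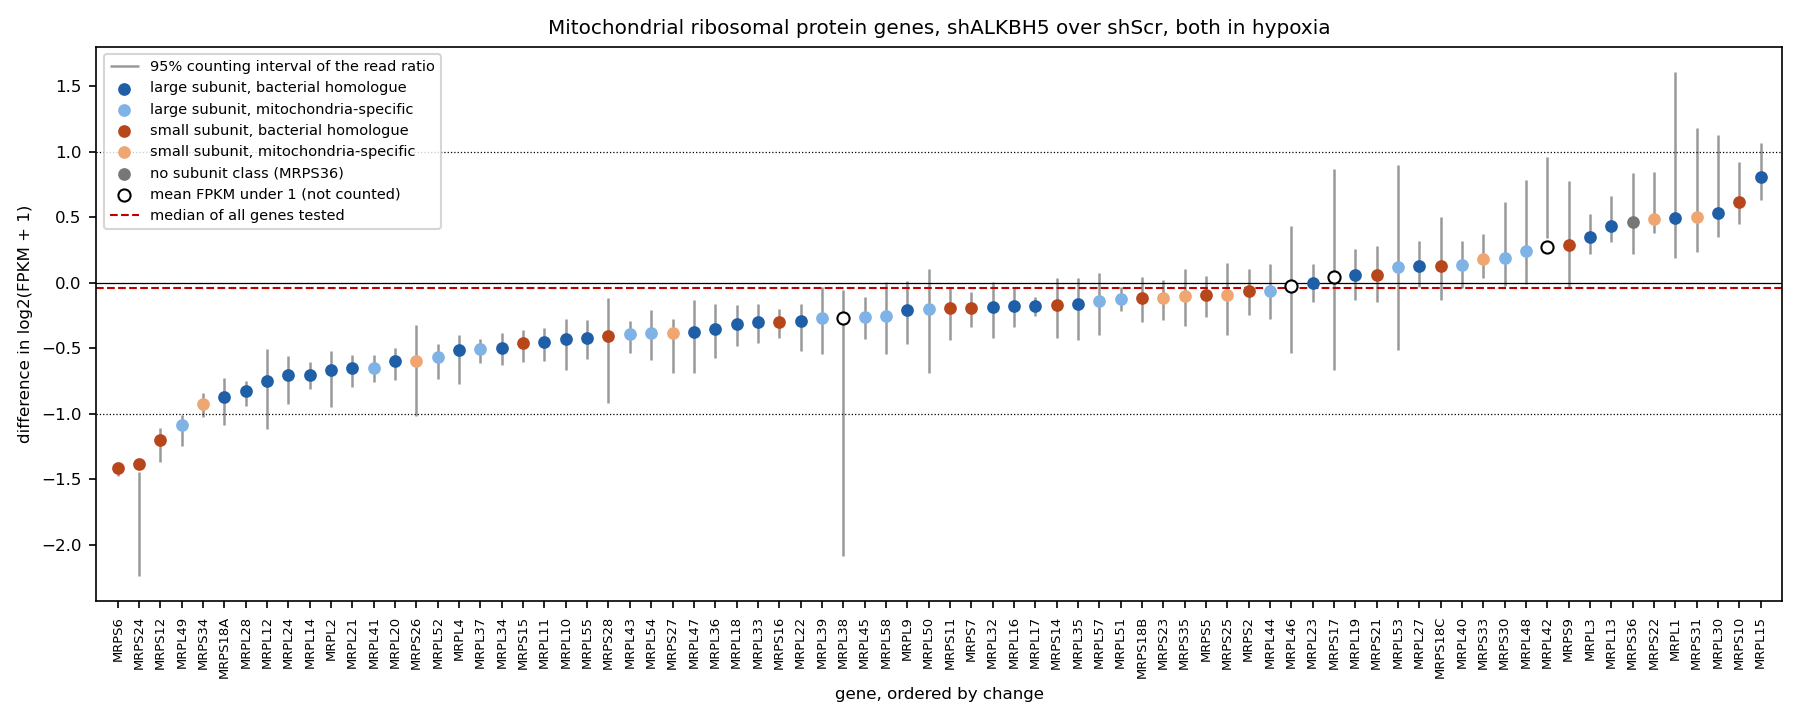
Difference in log2(FPKM + 1), shALKBH5 minus shScr, for each of the 78 genes, with the 95% exact counting interval of the log2 read ratio, which has no pseudocount and can therefore lie off the point in low genes such as MRPS24. MRPS6, MRPS24, MRPS12 and MRPL49 lie past 2-fold (dotted line), MRPL15 (0.81) is highest, and open points are the 4 genes under the filter.

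In shALKBH5 over shScr the change went with the level. The 24 members with the highest mean FPKM had a median of -0.48, with 3 of 24 at least 2-fold lower and 1 above 0. The middle 25 had a median of -0.19 and the lowest 25 of -0.09, and 12 of these lowest 25 were above 0. Other genes of the same ranges had medians of -0.29, -0.13 and 0.06, in the same order. Of the other genes in the highest range, 4.06% were at least 2-fold lower and 1.46% at least 2-fold higher. Spearman's rho between change and mean FPKM was -0.563 over the 74 members and -0.273 over all 10925 genes tested. Change and mean share the same values, so this is a description only.

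By subunit, the large subunit had a median of -0.28, with 1 of 48 lower. The small subunit had a median of -0.12, with 3 of 25 lower. Of all 10925 genes tested, 328 were lower. The 3 small subunit genes were MRPS6, MRPS24 and MRPS12, which all share exon bases with another gene, as do 41 of all 78 members. Under TPM, MRPS12 was at -0.97 and no longer past 2-fold. Whether the subunits differ was not tested. Of 24 assembly genes 1 was lower, MPV17L2, at 7.15 FPKM with shALKBH5 and 16.5 FPKM with shScr (-1.10), and the median was -0.31. On the scale used, MPV17L2 had the lowest change of the assembly genes in both comparisons, while under TPM MRM1 was lower in hypoxia (-2.20, against -1.99 for MPV17L2). Of 14 translation factors and 17 genes for charging tRNAs, 0 were past 2-fold in either direction, with medians of 0.14 and -0.17. Of 82 cytosolic ribosomal protein genes 0 were past 2-fold, with a median of -0.38, and of 73 respiratory chain genes 1 was lower, UQCRC1 (-1.11), with a median of -0.32. The members' median of -0.20 thus lay between those of all genes and of the cytosolic ribosome.

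Of the 74 members past the filter in both tables, 50 were below 0 in both comparisons, 18 were below 0 in hypoxia and above it with shALKBH5, 5 were above 0 in hypoxia and below it with shALKBH5, and 1 was above 0 in both. Most members were below 0 in each comparison alone, 72 of 78 in hypoxia and 55 of 74 with shALKBH5. The 50 below 0 in both are therefore no sign of a shared change. No such counts over all genes are given. The comparisons share no library. Spearman's rho between the changes was -0.213 over these 74 genes and -0.18 without MRPS6. At least 1.5-fold in opposite directions were 4 members. MRPS6 was at 1.73 in hypoxia and -1.42 with shALKBH5, and MRPL28 at 0.81 in hypoxia and -0.83 with shALKBH5. MRPL15 was at -1.36 in hypoxia and 0.81 with shALKBH5, and MRPS10 at -0.97 in hypoxia and 0.62 with shALKBH5. Among the 23 members lower in hypoxia, 21 passed the filter in the shRNA table, where 6 were above 0 and 15 below, with a median of -0.14.

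Some members stood far lower in the shRNA table than in the WT table. The tables were normalised separately, so such levels are only set side by side. In log2(FPKM + 1), shScr minus WT hypoxia had a median of -0.94 over the 78 members and -0.64 over 9262 genes past the filter in both tables. For 7 members, at least 20% of the exon bases are shared with another gene on the same strand, and their median was -2.51. The 9 members with a smaller same-strand overlap had a median of -1.26, and the 62 members with none on the same strand had a median of -0.78. MRPL53, which shares bases with CCDC142, stood at 1.65 FPKM with shScr and 80.1 FPKM in WT hypoxia. MRPS24, which shares bases with the read-through gene URGCP-MRPS24, stood at 6.03 FPKM with shScr and 156 FPKM in WT hypoxia. MRPL38 stood at 0.496 FPKM with shScr and 22.9 FPKM in WT hypoxia. The other four of the 7 were MRPL12, MRPL33, MRPS17 and MRPS28. The read-through gene itself had 0 reads in both shRNA libraries. Low levels also occurred without any same-strand overlap, since 7 of the 62 were below -2. Over all 78 members 14 were below -2, and so were 831 of the 9262 genes past the filter in both tables. The part of the counting in these levels was not tested.

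**Figure D5:**
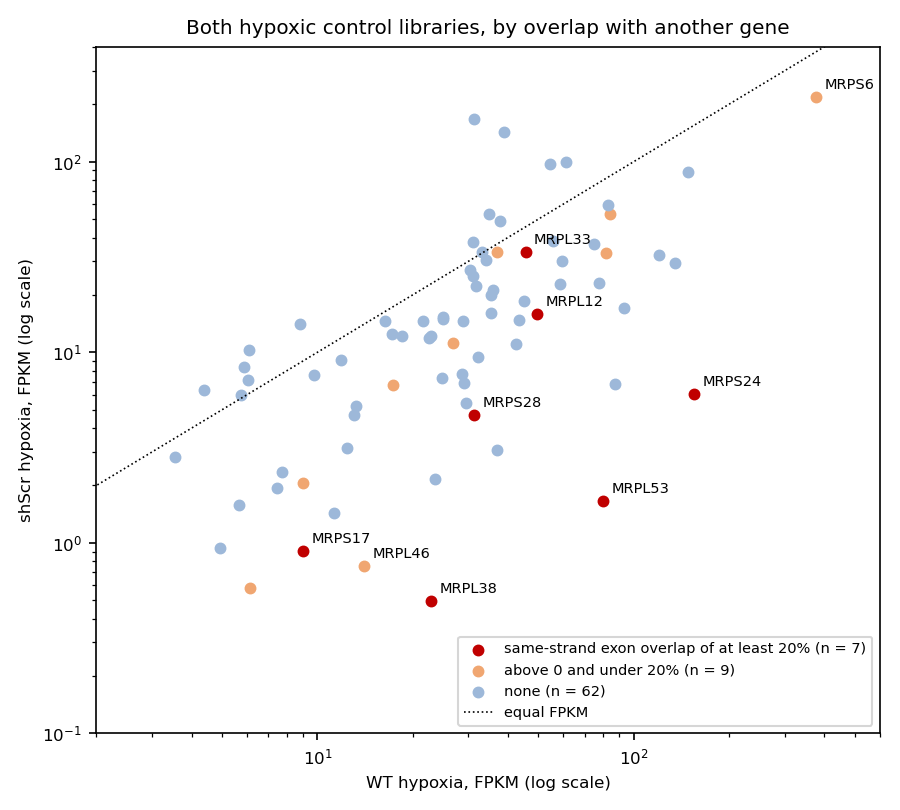
FPKM with shScr (vertical, log scale) against FPKM in WT hypoxia (horizontal, log scale) for the 78 genes, coloured by the share of exon bases that overlap another gene on the same strand. Of the 7 genes with at least 20% overlap (red), MRPL38, MRPL53, MRPS17, MRPS24 and MRPS28 lie far below the line of equal FPKM, and MRPL12 and MRPL33 closer to it.

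The rRNAs with which these proteins assemble were in the shRNA table only and were not analysed here for the WT libraries. The small rRNA, MT-RNR1, stood at 313 FPKM with shALKBH5 and 246 FPKM with shScr (0.34). The large rRNA, MT-RNR2, stood at 1017 FPKM with shALKBH5 and 567 FPKM with shScr, from 25137 and 13129 reads (0.84, under 2-fold, and 1.10 under TPM). MT-TV, the valine tRNA that is also part of the human mitochondrial ribosome, had 0 reads in both. Both rRNAs were thus higher with shALKBH5 while the members' median was -0.20. No source used here says how rRNA was removed or mRNA selected.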

How the data were processed

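The authors deposited FPKM values in 2 gene tables, 1 for the WT and 1 for the shRNA libraries, normalised separately. Per the submitters' processing notes the build was hg19, but gene starts and ends of the shRNA table were those of GENCODE 29 (GRCh38) in 58735 of 58735 rows, so GRCh38 is printed. No source used here names the aligner, counter or strand setting. In the WT table, 53 number and 12 date symbols were dropped, and in the shRNA table, of 1566 rows that repeated a symbol, the row with the highest mean was kept. FPKM times gene length gave whole reads, within 0.01, for 100% of values in the shRNA table, and gave the reads, the exact (Clopper-Pearson) intervals and TPM. WT depth is unknown. Changes were computed within a table on log2(FPKM + 1), with a filter of a mean of 1 FPKM and a 2-fold rule, no p-values, and Python 3.11.15 (numpy 2.4.6, pandas 2.3.3, scipy 1.17.1, matplotlib 3.10.9). The calculation was tested on simulated data. Members, lists and tests were chosen with earlier results of these data known. Named were members past 2-fold, the 5 highest and 5 lowest per comparison, the 5 most and least abundant per table, those under the filter, those at least 1.5-fold changed in opposite directions, some fixed by name, and up to 4 genes per other list. SLC5A3 and other overlapping genes were named after their values were seen. Alternatives were other pseudocounts, filters, scalings and thresholds, summed repeated symbols, protein-coding genes only, and members without overlap.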

Additional observations from a re-analysis of the deposited data

How the results depend on the processing

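In hypoxia over normoxia, the count of members at least 2-fold higher (1) and lower (23) became 3 and 6 when centred on the median gene, 3 and 46 with a 1.5-fold threshold, 1 and 5 with a 3-fold threshold, and 0 and 6 over the 29 members that overlap no other gene, a smaller set. At 1.5-fold, 1461 of all 11050 genes tested were higher and 3906 lower, and at 3-fold 370 were higher and 340 lower. The members' median minus that of all genes, -0.34, was -0.65 with no filter, which adds unexpressed genes to the background, and between -0.36 and -0.27 under the other settings tried. With shALKBH5 over shScr, the counts (0 higher, 4 lower) became 1 and 2 under TPM, 2 and 15 at 1.5-fold, 0 and 0 at 3-fold, and 0 and 0 over the members without overlap, while the difference of medians (-0.17) ranged from -0.22 to -0.12. In this comparison, 928 of all 10925 genes tested were higher and 1489 lower at 1.5-fold, and 50 and 66 at 3-fold. With totals of recovered reads, which shift every log2 ratio by 0.18 before 1 is added, 3 of 74 members were lower and 0 higher. Of all 10556 genes then tested, 181 were lower and 286 higher. Of the 24 members past 2-fold in hypoxia, 24 remained so under TPM and 7 when centred, and 0 changed direction. No paired analysis was possible because each group has 1 library, and for the same reason no library could be left out. WT depth is unknown, so no counting interval can be given for the hypoxia comparison.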

Other observations

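The mRNAs that the mitochondrial ribosome translates were measured in the shRNA libraries. All 13 mitochondrial mRNAs stood lower with shALKBH5 than with shScr as deposited, each under 2-fold, with a median log2 change of -0.47. They ranged from -0.85 for MT-CO2, at 1246 FPKM with shALKBH5 and 2252 FPKM with shScr, to -0.23 for MT-CO3, at 1340 FPKM with shALKBH5 and 1573 FPKM with shScr. Under TPM, MT-CO2 was at -0.59 and MT-CO3 at 0.03, so the direction of MT-CO3 depends on the scaling. Genes other than the members in the same range of mean FPKM as the upper 24 members had a median of -0.29 in this comparison, and the part of that in these values was not tested.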
